A study of Mus musculus with 2 samples.

Results

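The erythroid microRNA cluster of the mouse consists of Mir144 and Mir451a, which lie beside each other on 1 strand, and Mir451b, which is annotated on the opposite strand. These 3 genes were followed among the 2202 microRNA genes counted in small RNA from gastrocnemius, a large muscle of the calf. They were chosen by their GENCODE M21 gene names, with earlier results of these data known. All tissue was from males labelled 5xFAD/CAST, adults of 8 to 10 months. The 5xFAD transgenes are expressed in neurons and lead to amyloid plaques in the brain, and CAST mice are inbred from wild stock; whether these males carried the transgenes is not in the labels. RNA under 30 bases was sequenced in 2 libraries of this 1 group, labelled replicates 1 and 2, which share a donor record. Nothing in the labels says that they came from separate animals, so the spread between them may be technical in part, and no comparison between conditions was possible.

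Mir144 and Mir451a are transcribed together in red cell precursors under the control of GATA1, the transcription factor that directs erythroid genes. miR-144 is cut from its hairpin by Drosha and then Dicer, as most microRNAs are. The hairpin of miR-451a is too short for Dicer and is cut by Ago2 instead, after which the 3' end is trimmed. Mature red cells keep large amounts of miR-451a, so in a solid tissue this microRNA is widely read as a trace of blood.

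The cluster lies on chromosome 11 of mm10. Mir144 (ENSMUSG00000065401.1) spans chr11:78073005-78073070 on the plus strand and Mir451a (ENSMUSG00000070065.1) spans chr11:78073170-78073241 on the same strand, with 99 bases between the hairpins. Mir451b (ENSMUSG00000104813.1) has the same start and end as Mir451a and lies on the minus strand. No other annotated gene overlaps the cluster, which is intergenic. The nearest genes are Flot2, 12570 bases before Mir144, and Eral1, on the minus strand and 134 bases beyond Mir451a.

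The mature microRNAs are shown because the comparison of the cluster partners rests on reads counted in the genes that hold these sequences. The counts do not show which part of a hairpin each read covered. They are RefSeq sequences of the GRCm38.p6 build, written 5' to 3', with the seed (bases 2 to 8) in capitals.
miR-451a: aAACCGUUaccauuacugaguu
miR-144-3p: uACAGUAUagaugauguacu
miR-144-5p: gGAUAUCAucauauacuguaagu
miR-451b: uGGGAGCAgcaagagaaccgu
The 4 sequences have 4 different seeds. In the RefSeq table no other microRNA shared bases 2 to 8 with any of them. miR-101a-3p shared bases 2 to 7, but not base 8, with miR-144-3p.

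The hairpins are shown because the position of the mature sequence differs between the partners. Capitals mark the mature sequences.
Mir451a: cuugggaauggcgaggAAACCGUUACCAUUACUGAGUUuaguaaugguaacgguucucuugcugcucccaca
Mir144: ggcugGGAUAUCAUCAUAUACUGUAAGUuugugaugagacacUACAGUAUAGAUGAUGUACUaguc
Mir451b: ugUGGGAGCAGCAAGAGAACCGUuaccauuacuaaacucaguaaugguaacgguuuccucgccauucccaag
In structures predicted by RNAfold, the Mir451a hairpin ended in an unbroken helix of 17 base pairs closed by a loop of 4 bases. Mature miR-451a, at bases 17 to 38 of its hairpin, used 18 bases of the 5' arm and all 4 bases of the loop. In the Mir144 hairpin both mature sequences stayed outside the predicted loop of 6 bases. miR-144-5p lay in the 5' arm at bases 6 to 28 and miR-144-3p in the 3' arm at bases 43 to 62. The Mir144 gene count adds reads of both arms, and the arms cannot be told apart in it.

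**Figure D1:**
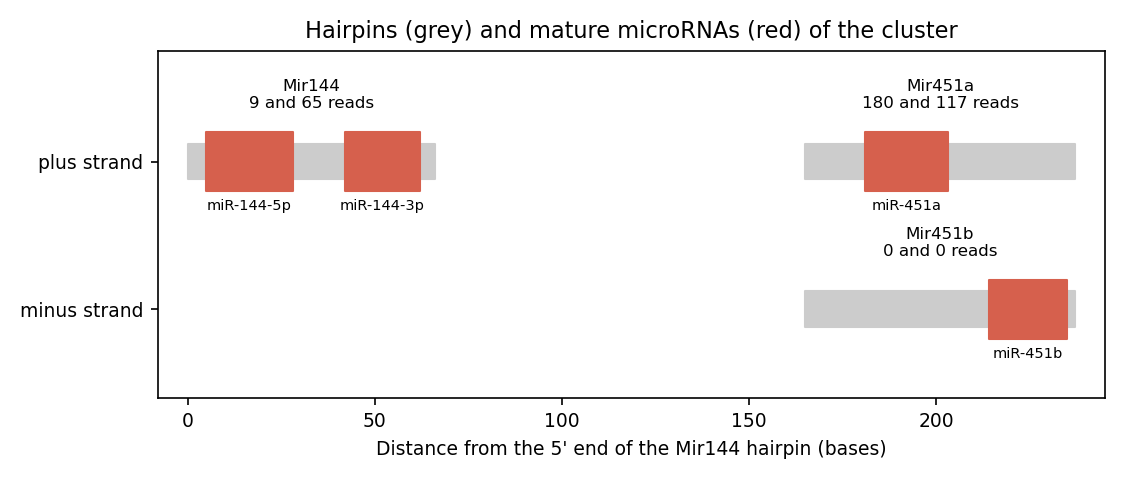
Map of the cluster, with the distance from the 5' end of the Mir144 hairpin in bases on the x axis and the strand on the y axis; grey bars are hairpins, red bars mature microRNAs, and the reads are those of replicates 1 and 2. Mir144 and Mir451a lie on the plus strand with 99 bases between them, and Mir451b, with 0 reads in both libraries, lies opposite Mir451a.

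Of 6119818 reads in replicate 1, 1157420 lay in microRNA genes on the sense strand. Replicate 2 had 1193393 such reads among 6632802. Levels are CPM, which are counts scaled to the same total of these sense reads in each library, in which 1 read is worth 0.864 CPM in replicate 1 and 0.838 CPM in replicate 2. Detection, set at 2 CPM in each library, was reached by 321 genes. Where no read was seen, 3 counts give the upper limit, equal to 2.59 CPM for replicate 1 and 2.51 CPM for replicate 2. The striated muscle list had 8 of 9 genes detected and held 3.87% of the sense reads in replicate 1 and 3.73% in replicate 2. Most of that was Mir206, which is specific to skeletal muscle, with 38135 and 39300 reads in replicates 1 and 2, and Mir486, also made in red cell precursors, with 5963 and 4423. The Mir1a and Mir133 loci, the main microRNAs of striated muscle, had between 0 and 60 reads each per library. Reads aligned to several places, 60.2% and 63.2% of all reads in replicates 1 and 2, were in no gene count. How many of them came from these loci was not tested, so the low counts do not show low levels of the microRNAs. Unless another kind is named, intervals and limits are exact Clopper-Pearson 95% values and 3-count floors. They hold for counting error alone: the reads carry no molecular identifiers, and PCR copies are not separate molecules.

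Mir451a, the Ago2-processed member, was the most abundant of the 3 genes. It had 180 reads in replicate 1, or 156 CPM with an interval of 134 to 180 CPM. In replicate 2 it had 117 reads, or 98.0 CPM with an interval of 81.1 to 117 CPM. The intervals of the 2 libraries did not overlap on this scale. With the same scaling, an exact binomial test called 46.4% of the 321 detected genes as different between the libraries at adjusted p below 0.05. The mean was 127 ± 40.6 CPM (SD, n = 2), which put Mir451a at rank 121 of the 321 detected genes. Of the 9 striated muscle genes, 3 lay above it in mean level (Mir206, Mir486 and Mir499) and 6 below, of which Mir208b, at 123 ± 27.4 CPM (SD, n = 2), lay within the spread. The order is of counted reads, without reads aligned to several places, so it does not rank the microRNAs by abundance.

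Mir144, the Dicer-processed partner, was both rarer and less even. It had 9 reads in replicate 1, or 7.78 CPM with an interval of 3.56 to 14.8 CPM. In replicate 2 it had 65 reads, or 54.5 CPM with an interval of 42.0 to 69.4 CPM. Replicate 1 was low and replicate 2 high, the reverse of the order in Mir451a. The mean of 31.1 ± 33.0 CPM (SD, n = 2) had an SD larger than itself and a rank of 192.

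Mir451b, the opposite-strand gene, had 0 reads in both libraries. Mir451a had 297 reads in both libraries together, so the absence of Mir451b reads allows a share of up to 1.01% of the reads at this place. The sequence of Mir451b is the reverse complement of Mir451a. Since the locus is close to a palindrome, the 2 strands also share a run of 16 bases, which covers bases 2 to 17 of mature miR-451a; the other 6 bases of the mature sequence lie outside it.

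Of 32 pairs of microRNA genes annotated on opposite strands of 1 place, 15 had 100 or more reads in the stronger gene, and in 10 of these the weaker gene had none. Mir451b was thus in the larger group, in which no read of the weaker gene was counted. The largest share of a weaker gene among the 15 pairs was 9.88%. Mir3107, opposite to Mir486, had 1.72% of the reads of its place (1.48 to 1.99%), above the limit for Mir451b. In the column that counts both strands together, Mir451a also had 0 reads in both libraries. That column lists 325180 reads in replicate 1 and 375109 in replicate 2 as ambiguous between genes, against 0 in the stranded columns. Mir144, which has no opposite-strand gene, had the same 9 and 65 reads in it. The levels of Mir451a given here rest on the strand-specific column alone.

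**Figure D2:**
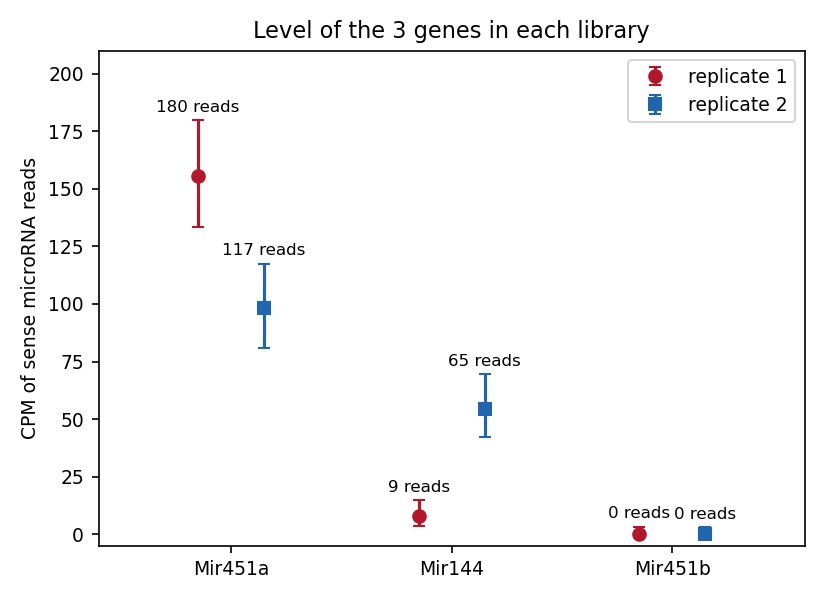
Level (CPM of sense microRNA reads, y axis) of Mir451a, Mir144 and Mir451b in replicate 1 (circles) and replicate 2 (squares), with exact 95% intervals for counting error and the read count above each point. Mir451a runs from 156 CPM in replicate 1 to 98.0 CPM in replicate 2, and Mir144 from 7.78 CPM in replicate 1 to 54.5 CPM in replicate 2.

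The cluster partners were then compared within each library, which needs no scaling between libraries. Replicate 1 had 20.0 reads of Mir451a per read of Mir144 (10.3 to 44.4). Replicate 2 had 1.80 (1.32 to 2.48). Mir451a was the larger in each library, but the intervals of the ratio lay far apart. Of the reads of both genes, Mir451a made up 95.2% in replicate 1 (91.2 to 97.8%) and 64.3% in replicate 2 (56.9 to 71.2%).

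The ratio in replicate 1 was 11.1-fold that in replicate 2 (95% interval 5.21 to 26.2; two-sided Fisher's exact p = 1.04e-14). This test compares the reads of these libraries and not conditions, and it takes reads as independent. Its interval is that of the conditional odds ratio, which was 11.0. From replicate 1 to replicate 2 Mir451a fell and Mir144 rose, so their sum had to vary less than their ratio. The sum had 189 reads, or 163 CPM, in replicate 1 and 182 reads, or 153 CPM, in replicate 2. With TMM scaling the ratio of the sums, replicate 1 over replicate 2, was 0.866 (0.703 to 1.07, two-sided exact binomial p = 0.175), and with total counts only it was 1.07 (0.869 to 1.32).

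Across all detected genes the libraries were compared by a two-sided exact binomial test with TMM scaling and Benjamini-Hochberg adjustment at 0.05. It called 37.4% of 321 genes, 60 higher and 60 lower in replicate 1, so a call between these libraries is common. Mir144 was lower in replicate 1, with a ratio over replicate 2 of 0.115 (0.0505 to 0.233) and a log2 ratio of -2.95 (exact binomial adjusted p = 3.29e-13). Calls in that direction made up 18.7% of the genes. Mir451a had a log2 ratio of 0.36, a ratio of 1.28 (1.01 to 1.63) and an exact binomial adjusted p of 0.0918, which does not pass. It did pass with total counts only, at a log2 ratio of 0.66 (exact binomial adjusted p = 3.05e-04), a scaling that moved the median of all genes by 0.29 and called 46.4% of them, and with DESeq2 size factors, at 0.44 (exact binomial adjusted p = 0.0228), which called 41.4%.

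The difference in Mir144 was large beside the background of calls. Its log2 ratio was the fourth farthest from 0 of the 321, after Mir26a-1 at 4.33, Mir301 at -4.13 and Mir302d at -3.48, and 84.1% of detected genes lay within 1 log2 unit of equality. Of the 80 detected genes within 2-fold of its 74 reads, 3 lay as far from 0 or farther, Mir144 among them. With the common dispersion that edgeR estimated from the 2 libraries, a coefficient of variation of 33.8%, its exact test called 5 genes (1.56%), of which Mir144 was one (edgeR exact test, adjusted p = 0.0328). Mir451a had an adjusted p of 1 in that test.

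**Figure D3:**
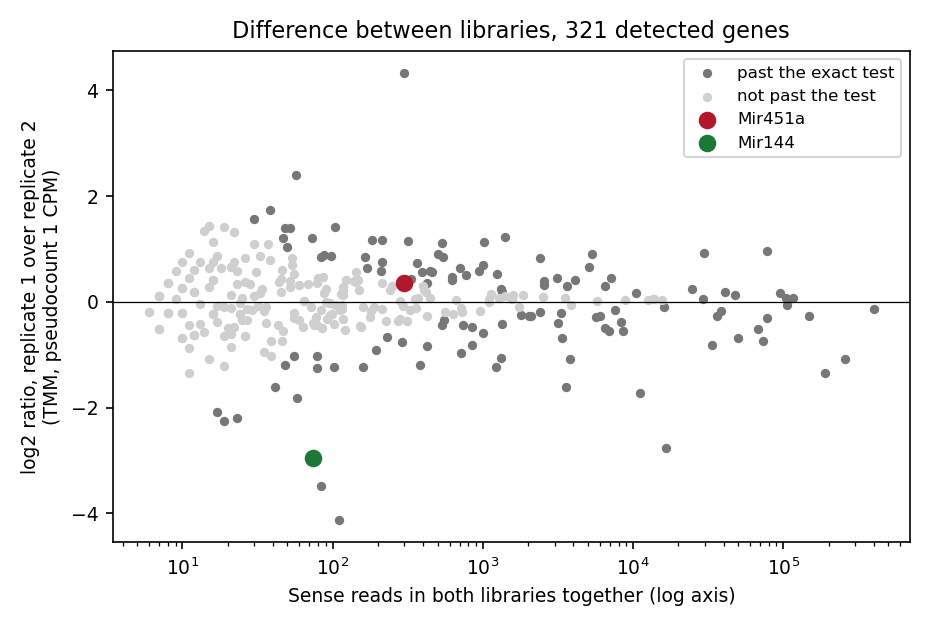
Log2 ratio of replicate 1 over replicate 2 (y axis, TMM scaling, pseudocount 1 CPM) against the sense reads of both libraries together (x axis, log scale), with 1 point per detected gene and dark points for genes past the exact binomial test. Mir144 lies at -2.95, near the lower edge, and Mir451a at 0.36, within the cloud.

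Base composition was one property in which the partners stood near an end of the range. Mature miR-144 had a mean GC content of 30.2% over its arms, the fourth lowest of the 289 detected genes with a RefSeq mature sequence, and miR-451a had 36.4%, at rank 20 from the lowest, against a median of 50.0%. Across these 289 genes, which are not independent replicates and share the libraries, GC content and the log2 ratio had a Spearman rho of 0.17. The third of genes with the lowest GC content had a median log2 ratio of -0.17, against 0.13 in the third with the highest. The part of base composition in the Mir144 result was not tested.

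The libraries also differed within other clusters. Among pairs of neighbouring microRNA genes on 1 strand, within 1000 bases and with 20 or more reads in each gene, 34 could be compared. The log2 ratios of Mir144 and Mir451a lay 3.30 apart, the third widest of these pairs, and the median pair lay 0.70 apart. Next above stood Mir302c and Mir302a, 3.63 apart, with 50 and 7 reads of Mir302c and 53 and 105 of Mir302a in replicates 1 and 2. The widest pair, Mir302b with the same Mir302c, lay 4.23 apart, so the pairs overlap and are not independent. Next below stood Mir92-2 and Mir363, 2.57 apart, with 85 and 54 reads of Mir92-2 and 4 and 19 of Mir363. Of the 34 pairs, 24 lay less than 1 log2 unit apart. In the 5 widest pairs the weaker gene had between 23 and 83 reads. Where the weaker gene had at most double the reads of Mir144, the median of 16 pairs was 0.87.

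**Figure D4:**
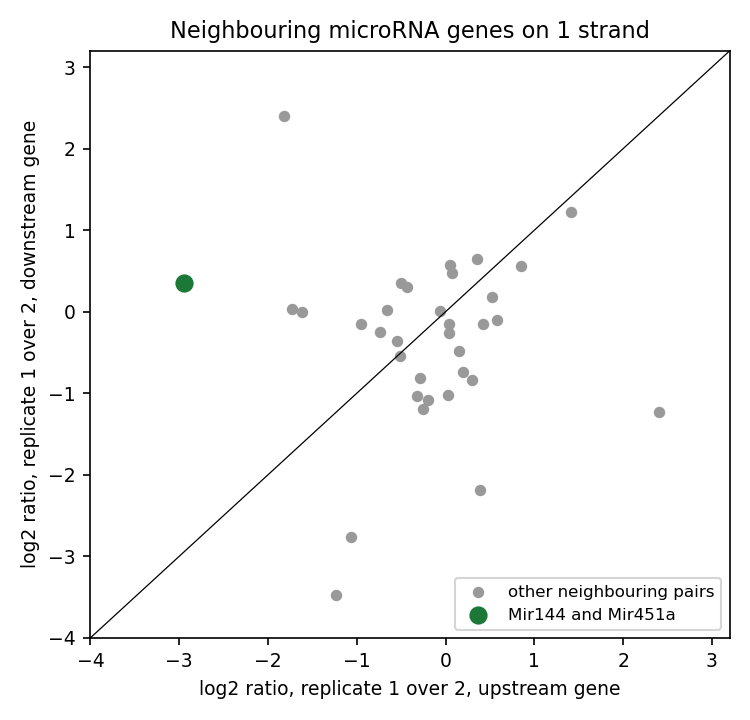
Log2 ratio of replicate 1 over replicate 2 (TMM scaling) of the upstream gene (x axis) and the downstream gene (y axis) in 34 pairs of neighbouring microRNA genes on 1 strand, with a line of equality. The green point is Mir144, at -2.95, with Mir451a, at 0.36; pairs far from the line had partners that differed unequally between the libraries.

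As a gauge of blood, the erythroid pair was set beside other microRNAs of blood cells. In a bulk tissue, fewer cells of a type and less RNA per cell cannot be told apart. The leukocyte and platelet list had 6 of 7 genes detected and 23.4 reads per erythroid read in replicate 1 and 18.2 in replicate 2. Most of the list's reads in each library were of Mir155 and Mir150. Mir223, a microRNA of neutrophils and platelets, had 88 and 56 reads in replicates 1 and 2, fewer than Mir451a in each. Its log2 ratio of 0.38 stood beside 0.36 for Mir451a. Mir142, found across white blood cells, had 70 and 81 reads, at -0.47. Mir150, of mature lymphocytes, had 1560 and 994 reads, at 0.39, and Mir155, of activated immune cells, 1965 and 1557, at 0.07. Mir342, known in lymphoid cells, had 380 and 238 reads, at 0.41. Mir146, induced in inflammation, had 346 and 389 reads, at -0.43, and its paralog Mir146b 6 and 0.

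Of this list, Mir150 and Mir342 were higher in replicate 1 and Mir146 was lower by the exact binomial test, while Mir155, Mir142 and Mir223 did not pass. Over all detected genes, calls made up 18.7% in each direction. The list's median log2 ratio was 0.23, against 0.01 over all detected genes. In distance from equality Mir144 stood at rank 4 of the 321 detected genes, so few genes could lie as far. None of the 6 detected members of the list did. With total counts only, 4 were higher and none lower, Mir223 and Mir155 among the higher, and the median was 0.53; over all genes that scaling called 35.5% higher and 10.9% lower, with a median of 0.30.

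Of the 13 microRNAs that red cells share with other tissues, all were detected, and 10 lay above Mir451a in mean level and 3 below (Mir3107, Mir92-2 and Mir363). Reads aligned to several places are in none of these levels, so the order is of counted reads only. Mir16-2, at a mean of 140 CPM, lay within Mir451a's spread. By the exact binomial test 3 were higher and 6 lower in replicate 1, beside 18.7% of all detected genes in each direction, and their median log2 ratio was -0.15. With total counts only, 6 were higher and 4 lower and the median was 0.16, beside 35.5% of all genes higher, 10.9% lower and a median of 0.30. Mir486, which is made both in muscle and in red cell precursors, led with 5963 reads in replicate 1 and 4423 in replicate 2, at a log2 ratio of 0.17. Mir16-1, of the family that restrains the cell cycle, had 595 and 497 reads and a log2 ratio of -0.0028. Mir15a, its cluster partner, had 1001 and 2556, at -1.61. Mir363 was the member with the lowest ratio, at -2.19, on 4 and 19 reads. Mir122, the liver microRNA that also circulates in plasma, had 12 and 13 reads, beside 1 and 8 on the opposite strand. Endothelial Mir126a, of the vessel wall, had 93483 and 164298 reads and a log2 ratio of -1.08.

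**Figure D5:**
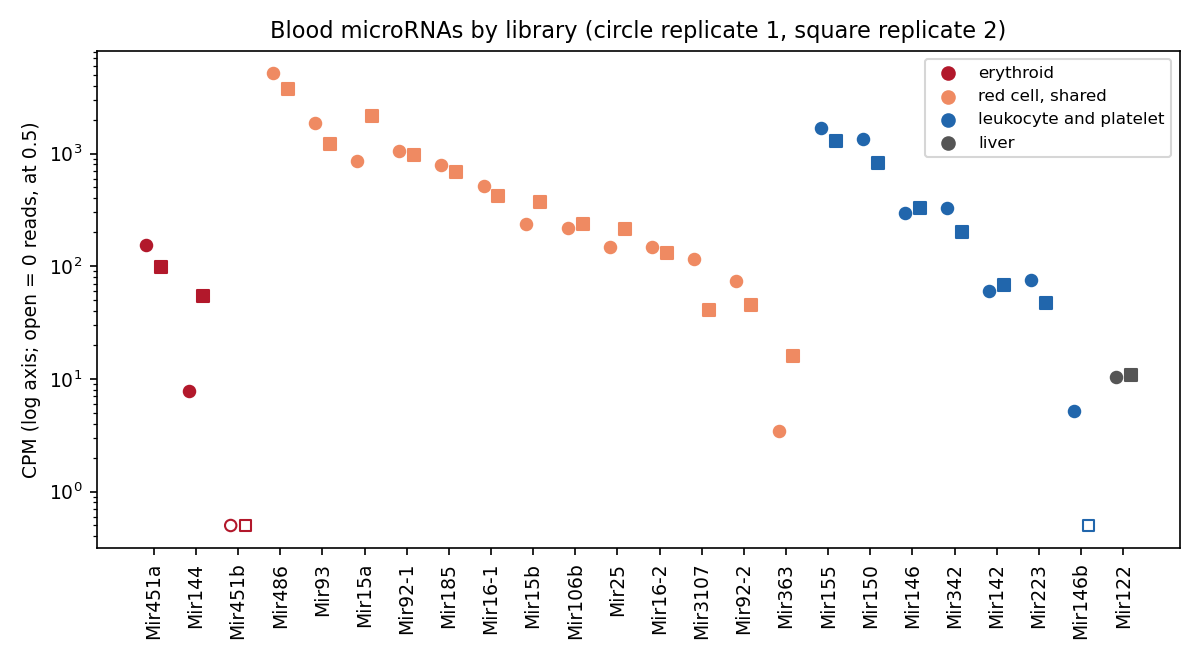
Level (CPM, log axis) of the genes of the erythroid, shared red cell, leukocyte and platelet, and liver lists in replicate 1 (circles) and replicate 2 (squares); open symbols at 0.5 stand for 0 reads. Mir144 shows the widest gap between the libraries among genes with reads in both, and Mir451a lies between Mir342 and Mir223.

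The genes nearest to the members in level, by the larger of the differences in log2(CPM + 1) in the 2 libraries, differed between the partners. Nearest to Mir451a were Mir26a-2 with 188 and 125 reads, Mir541 with 205 and 127, and Mir181d with 154 and 127, all within 0.22. Nearest to Mir144 were Mir302d with 7 and 76 reads, Mir302b with 14 and 44, and Mir301 with 6 and 105, at 0.32 to 0.68. The likeness rests on 2 libraries, and 2 of these genes, Mir302d and Mir301, are those that lay farther from equality than Mir144 in the same direction. Mir101a, whose miR-101a-3p shares seed bases 2 to 7 with miR-144-3p, had 188 and 169 reads and a mean of 152 ± 14.7 CPM (SD, n = 2), above Mir144 in each library.

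Neither Mir144 nor Mir451a shares a run of 20 bases with a microRNA gene at another place, and no mature sequence of the cluster was found in an annotated transcript of another gene. The genome sequence itself was not searched, so matches outside annotated genes were not tested. Reads aligned to several places, which were 3.18 times the sense reads in replicate 1 and 3.51 times in replicate 2, were counted in no gene. How many of them came from this cluster was not tested.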

How the data were processed

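Small RNA from 2 libraries of 1 group was analysed. The deposited values are raw counts of reads in each microRNA gene, without a header, in 3 columns: the sum over strands, then each strand alone. The deposited descriptions name mm10 and GENCODE M21; aligner and counter: not given in the sources used here. As sense, the stranded column that was larger in each library was used. Lines of totals that name no gene stayed out of library sizes; reads aligned to several places were 60.2% and 63.2% of all reads in replicates 1 and 2.

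CPM were computed over sense reads. Ratios used TMM effective library sizes (edgeR 4.0.16, R 4.3.3; factors 1.11 and 0.899) and a pseudocount of 1 CPM. Genes at 2 CPM or more in both libraries were tested with an exact conditional binomial test, adjusted by Benjamini-Hochberg over all of them. The partners were compared with Fisher's exact test (scipy 1.17.1), and hairpins folded with RNAfold 2.7.2. On simulated data without spread beyond counting error, 69.5% of 200 genes changed 2-fold were recovered among 321 for this comparison, and 2 of 121 unchanged genes were called.

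The members and lists were chosen with earlier results of these data known. Genes named are the members, the 3 genes nearest each of Mir451a and Mir144 in level, the lists of blood genes, and the pairs next to the cluster in the order of neighbouring pairs; Mir26a-1, Mir101a, Mir3107 as an opposite-strand gene and the striated muscle, endothelial and liver genes were named after their values were seen. The alternatives were other scalings (DESeq2 1.42.0 size factors, total counts), filters, strand column, pseudocount, denominators, edgeR exact tests, Boschloo's test and leaving out each replicate.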

Additional observations from a re-analysis of the deposited data

How the results depend on the processing

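The Mir144 difference kept its direction and its call under all 7 alternatives that gave a value, from -2.66 (log2, total counts only) to -3.10 with a pseudocount of 0.1 CPM; the filter of 10 CPM removed the gene. Mir451a kept its direction in 7 alternatives and passed in 2: at 0.66 with total counts only and at 0.44 with DESeq2 size factors. The column of both strands gave it a level of 0 and a ratio to Mir144 of 0, where it overlaps Mir451b, so no ratio between libraries could be had there. With all reads as the denominator the mean of Mir451a was 23.5 CPM. The count of genes differing, 120, was 53 in edgeR's exact test with dispersion 0.01 and 5 with the common dispersion, which allow for more spread. Total counts only split 149 calls into 114 higher and 35 lower in replicate 1, and DESeq2 size factors 133 into 78 and 55. Leaving out 1 replicate gave 98.0 to 156 CPM for Mir451a, 7.78 to 54.5 CPM for Mir144, and 1.80 to 20.0 for the ratio of the partners. Boschloo's exact test gave p = 8.50e-15 for that ratio. No paired analysis was possible because the series has 1 group. The 9 reads of Mir144 in replicate 1 limit its precision. The common dispersion came from the 2 libraries that its test compares, so that call is not separate support.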
